A study of Mus musculus with 48 samples.

Results

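GABA-A receptor subunits were described through 7 genes, Gabra2, Gabra3, Gabra4, Gabra5, Gabrb1, Gabrb2 and Gabrd, found by their symbols among the 48795 genes of the deposited count table. All 7 passed the filter on low counts, which left 19975 genes for testing. Following the choice made for these genes, Gabrd, Gabra4 and Gabra5 were taken as the extrasynaptic class and the other 4 genes as the synaptic class. The libraries came from the dissected striatum of C57BL/6 mice aged 6 months, in 6 groups: wild type (n = 7), heterozygous Q140 knock-in (n = 8), Msh3+/- (n = 9), Msh3-/- (n = 8), Q140 with Msh3+/- (n = 8) and Q140 with Msh3-/- (n = 8). Each group held females and males, 24 libraries of each sex in all. The Q140 line is a knock-in model of Huntington's disease with an expanded CAG repeat in the endogenous Htt gene, and Msh3 encodes a DNA mismatch repair protein known to promote expansion of such repeats in somatic tissue. The labels do not state that every library came from a different mouse, so each test set a difference against the spread between these libraries. Library names hold an animal code, and some libraries, within and between groups, share its stem. The labels do not say what a shared stem means.

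GABA-A receptors are ligand-gated chloride channels assembled from several subunits, most often alpha and beta subunits with a gamma or a delta subunit. Receptors with alpha2 or alpha3 and a gamma subunit are anchored at synapses and carry brief inhibitory currents, whereas delta with alpha4, and receptors with alpha5, lie largely outside synapses and sense ambient GABA. Beta subunits take part in receptors of both kinds, so that placing Gabrb1 and Gabrb2 in the synaptic class is a convention. Medium spiny projection neurons, the main neurons of the striatum, release GABA and also carry tonic GABA-A currents in which delta-containing receptors take part.

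Total counts ranged from 33.7 M to 52.8 M a library, with a median of 45 M, and each member had at least 616 counts in every library. Msh3 reads were higher in the libraries labelled with Msh3 alleles than in wild type: means ± SD were 31.0 ± 1.46 read counts scaled to library size (CPM) in wild type, 77.4 ± 4.74 in Msh3+/- and 119.7 ± 7.03 in Msh3-/-. With Q140 the means were 32.1 ± 1.27, 77.0 ± 3.14 and 125 ± 6.60 in the same order, so that gene counts alone did not show a loss of Msh3, and the Msh3 groups are named as labelled. All 20 medium spiny neuron markers were detected in every library, and their summed level in wild type was between 19460 and 21990 CPM. In 1 Msh3+/- library (F5) the summed cortical neuron markers reached 175 CPM against a group median of 25.2, and in 1 Q140 Msh3+/- library (F1) choroid plexus and ependymal markers reached 4321 CPM against a median of 54.8. A wild type library (F3) stood apart in Gabra3, below. Leaving these 3 libraries out together, a choice made after seeing the data, changed the number of members called in 1 comparison, which is given there.

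Of the 7 members, 3 lie on mouse chromosome 5 in the deposited build, GRCm38, with coordinates here from GENCODE M21. Gabra2 spans chr5:70957597-71095849 on the minus strand, Gabra4 chr5:71569749-71658308 on the minus strand and Gabrb1 chr5:71658113-72149037 on the plus strand. These genes lie between 36.0 and 36.7 Mb from Htt, on the chromosome that carries the knock-in allele. Gabra5 lies on chromosome 7 at 57407672-57510059 (minus strand), where the antisense gene Gm9962 overlaps it by 2270 bases. Gabrb2 lies on chromosome 11 at 42419757-42629028, Gabrd on chromosome 4 at 155384980-155398112 and Gabra3 on chromosome X at 72432681-72656848. The library kit was stranded, but how strand was treated in counting is not given in the sources used here, so reads of Gabra5 and of genes on the other strand cannot be told apart with certainty where they share bases.

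Gabra4 and Gabrb1 start head to head, and overlap by 196 bases in GENCODE M21 and by 388 bases from their RefSeq starts. They were the pair of neighbouring members that both fell in Q140, which is why their promoter windows are shown. Each window covers 250 bases before to 50 bases after the RefSeq start, on GRCm38.p6, written 5′ to 3′ on the gene's own strand; capitals mark a GC box (GGGCGG on either strand). The Gabra4 window is chr5:71658259-71658558 (minus strand) and the Gabrb1 window, the first of 2 in the table, is chr5:71657671-71657970 (plus strand), with 288 bases between them.
Gabra4: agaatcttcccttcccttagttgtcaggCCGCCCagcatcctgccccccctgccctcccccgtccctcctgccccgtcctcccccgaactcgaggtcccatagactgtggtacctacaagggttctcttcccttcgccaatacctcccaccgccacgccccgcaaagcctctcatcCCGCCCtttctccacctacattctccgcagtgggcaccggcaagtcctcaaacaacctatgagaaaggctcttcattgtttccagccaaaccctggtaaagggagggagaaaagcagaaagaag
Gabrb1: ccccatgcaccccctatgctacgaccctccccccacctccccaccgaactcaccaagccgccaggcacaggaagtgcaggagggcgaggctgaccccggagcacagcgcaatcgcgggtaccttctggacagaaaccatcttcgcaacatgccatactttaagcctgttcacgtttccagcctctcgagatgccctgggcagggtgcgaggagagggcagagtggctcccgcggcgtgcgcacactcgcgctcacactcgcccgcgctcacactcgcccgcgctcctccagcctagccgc
The Gabra4 window holds 2 GC boxes and has a GC content of 58.7%. The Gabrb1 window holds none and has a GC content of 66.0%, both above the median of 52.7% over all 32851 windows of this length in the RefSeq table. The second Gabrb1 window, at chr5:71699682-71699981, has a GC content of 50.3%, below that median, and holds no GC box. GC boxes were found in 35.7% of all windows. Neither printed window holds TATAAA (13.6% of all windows), the cyclic AMP response element TGACGTCA (1.79%), or the EGR forms GCGTGGGCG (0.612%) and GCGGGGGCG (2.91%), all searched on both strands; GCGGGGGCG can overlap a GC box. The table gave windows for 6 of the 7 members, and Gabrd was the member without one.

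Levels of different subunits were compared per length, as FPKM, read fragments scaled to gene length and library size. Among the 7 members in wild type striatum, Gabrd was the most abundant at 41.1 ± 2.39 FPKM (SD, n = 7), followed by Gabra4 at 32.0 ± 1.73, and the ranges of these genes did not overlap with each other or with any other member. Gabrb2 had 20.1 ± 1.73 FPKM and Gabra2 17.0 ± 2.17, with overlapping ranges. Gabrb1 at 12.7 ± 0.590 FPKM stood below both, its highest library at 13.5 against a lowest Gabra2 library of 13.52. Gabra3 (8.18 ± 1.0) and Gabra5 (6.31 ± 0.867) were the lowest members, and their ranges overlapped. Per length, the delta subunit transcript thus ranked above the 4 alpha subunit transcripts among the members. This order rests on the fixed gene lengths implied by the deposited FPKM, such as 2875 bases for Gabrd, 6083 for Gabra4 and 13838 for Gabrb1. By wild type mean CPM, not scaled to length, Gabra4 (197.6), Gabrb1 (178.9), Gabra2 (132.1) and Gabrb2 (130.1) stood above Gabrd (120.1).

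**Figure D1:**
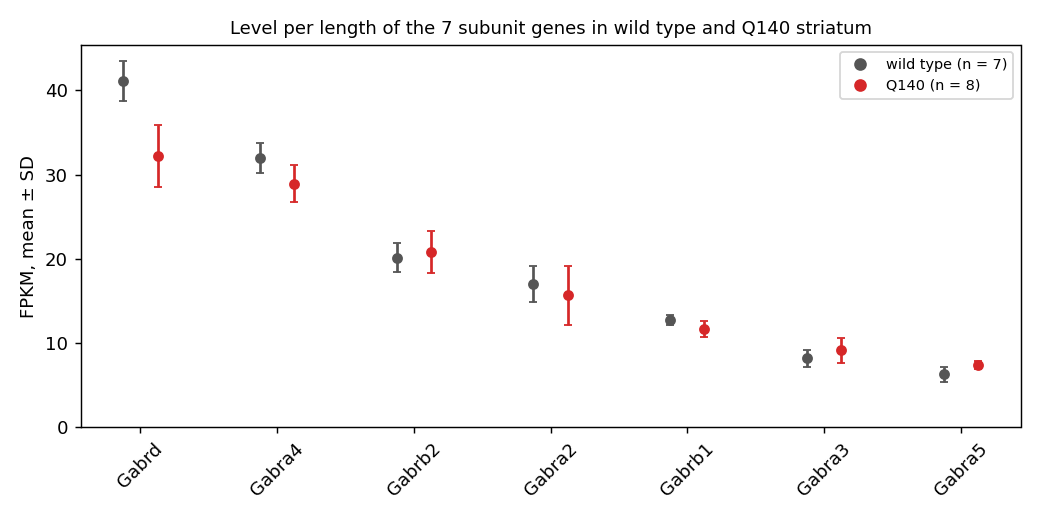
Deposited FPKM (y axis, mean ± SD) of the 7 members in wild type (7 libraries, grey) and Q140 (8 libraries, red) striatum, ordered by the wild type mean. Gabrd moved from 41.1 FPKM in wild type to 32.2 in Q140 and Gabra4 from 32.0 to 28.9, while Gabrb2 had 20.1 and 20.9. FPKM is scaled by library totals, and the TMM-scaled CPM of Gabrb2 had means of 130.1 in wild type and 127.7 in Q140.

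The first comparison, Q140 against wild type, asked what the knock-in allele alone changes at 6 months. Of the 7 members, 3 fell, none rose and 4 did not pass the test; of all genes tested, 19.9% were called, 9.64% higher and 10.2% lower (edgeR quasi-likelihood test, Benjamini-Hochberg adjusted p under 0.05). The 3 that fell were Gabrd, Gabra4 and Gabrb1, from both classes. The median log2 change was -0.20 over the members and 0.01 over all genes.

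Gabrd, the delta subunit that marks extrasynaptic receptors, had a lowest, median and highest value of 111, 120 and 129 CPM in wild type and of 80.2, 82.0 and 109.9 CPM in Q140. Every Q140 library lay below every wild type library; ranges did not overlap for 3.52% of all genes. Of the 8 Q140 libraries, 5 lay between 80.2 and 82.7 CPM, and F4, M4 and F3 were higher at 97.3, 99.3 and 109.9 CPM. The mean fell from 120.1 ± 6.99 to 89.0 ± 11.5 CPM, a log2 fold change of -0.43 (SE 0.06, 95% interval -0.54 to -0.32), or a fall to 74.1% of wild type (edgeR, Benjamini-Hochberg adjusted p = 6.98e-08).

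Gabra4, the alpha partner of delta, had 179, 197 and 212 CPM (lowest, median, highest) in wild type and 144, 175 and 186 CPM in Q140. The ranges overlapped, and 5 of 8 Q140 libraries lay below the lowest wild type library. It fell by 0.23 on the log2 scale (SE 0.05, edgeR, Benjamini-Hochberg adjusted p = 0.00154), to 85.5% of wild type. The drop was smaller for Gabra4 than for Gabrd, and the FPKM ratio of Gabrd to Gabra4 was 1.29 ± 0.102 in wild type and 1.11 ± 0.105 in Q140, with overlapping ranges; this ratio was not tested.

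Gabrb1, a beta subunit of the synaptic class, had 169.8, 178 and 192 CPM in wild type and 130.1, 161 and 171 CPM in Q140. Of 8 Q140 libraries, 7 lay below the lowest wild type library, and M3 was inside the wild type range. It fell by 0.20 on the log2 scale (SE 0.05, edgeR, Benjamini-Hochberg adjusted p = 0.00733), to 87.2% of wild type. This call depended on scaling: with library totals in place of TMM factors the log2 change was -0.12 (adjusted p = 0.0788).

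The other 4 members did not pass. Gabra5, an alpha subunit of tonic receptors, had 14.0, 19.3 and 22.0 CPM in wild type and 18.7, 21.1 and 22.9 CPM in Q140, a log2 fold change of 0.16 with an interval of 0.01 to 0.30 (edgeR, Benjamini-Hochberg adjusted p = 0.134). Its value was thus on the opposite side of 0 from Gabrd and Gabra4. With library totals as the scale Gabra5 was called higher, at a log2 fold change of 0.24 (edgeR, Benjamini-Hochberg adjusted p = 0.0101). Over all genes that scaling moved the median log2 change from 0.01 to 0.10, and the share of called genes that were higher from 48.5% to 82.1%; under it Gabrd and Gabra4 were still lower, at log2 -0.35 and -0.15.

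Gabra3, an alpha subunit of synaptic receptors, had a log2 fold change of 0.07 (interval -0.09 to 0.24) and Gabrb2, a further beta subunit, one of -0.03 (interval -0.19 to 0.14), which was 0.05 with library totals. Gabra2, the main synaptic alpha subunit of medium spiny neurons, had a log2 fold change of -0.20 with the widest interval of the members, -0.52 to 0.12. The intervals allow Gabra3 to be between 94.1% and 118% of wild type and Gabrb2 between 87.7% and 109.9%, so these data do not show that either gene is the same in both groups.

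**Figure D2:**
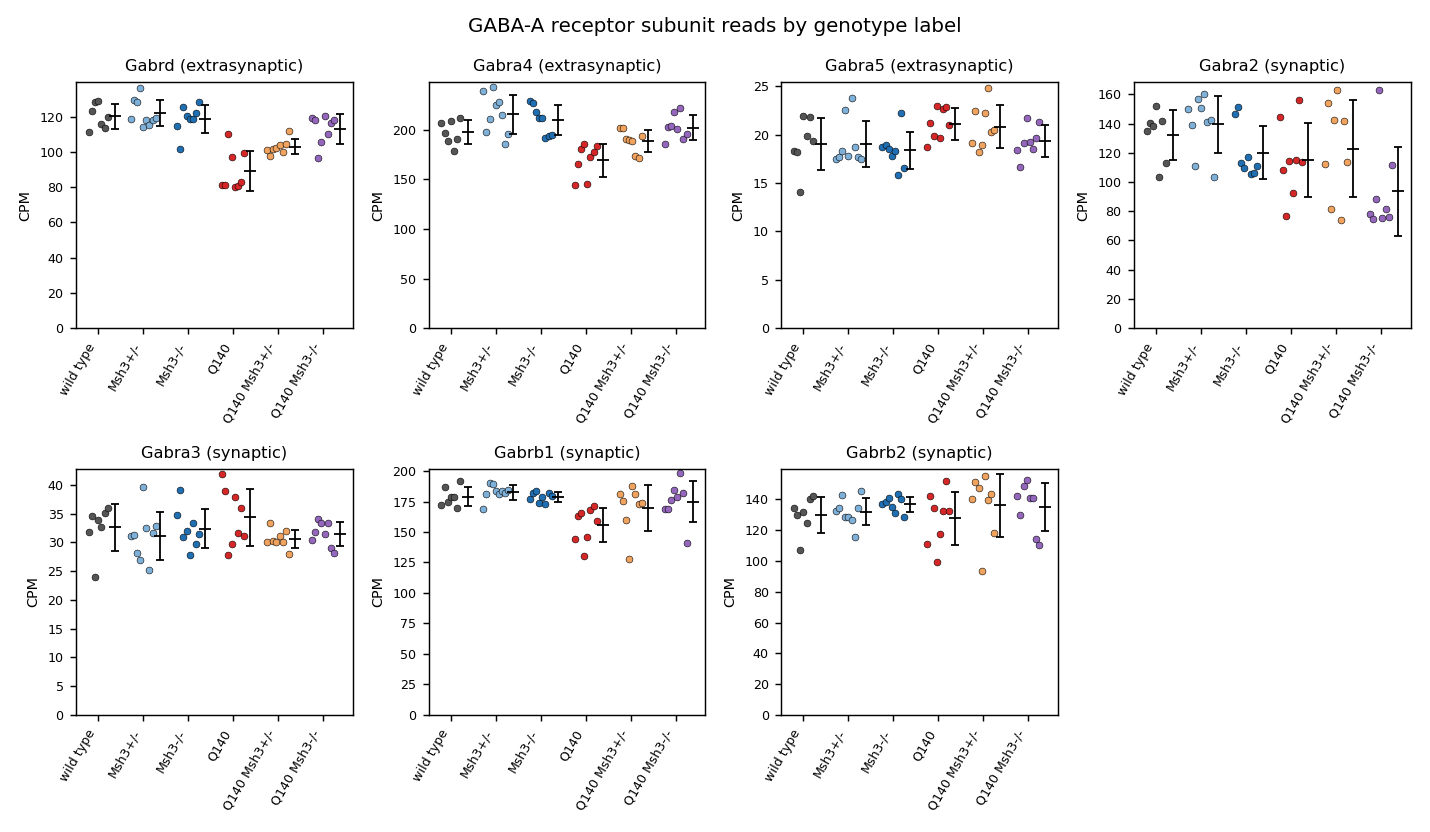
TMM-scaled CPM (y axes, each from 0) of the 7 members in 48 libraries by genotype label; each dot is 1 library, and the bar beside each group is the mean ± SD. The Q140 dots of Gabrd, 80.2 to 109.9 CPM, lie below all wild type dots, while the dots of Gabra2 spread from 74.3 to 163 CPM.

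Medium spiny neuron markers moved in the same comparison: 19 of 20 fell and 1 rose, with a median log2 change of -0.53, and their summed level ranged from 19460 to 21990 CPM in wild type and from 11650 to 17070 CPM in Q140. Astrocyte markers moved too, with 5 of 10 lower, and summed levels of 5066 to 5450 CPM in wild type and 3731 to 4701 CPM in Q140. Of 7 endothelial and mural markers, 3 were lower and all 7 lay below 0, with a median log2 change of -0.23 and summed levels of 292 to 327 CPM in wild type and 240.5 to 288 CPM in Q140, which did not overlap. Of 7 microglia markers, 2 were lower and all 7 lay below 0, with overlapping summed levels of 338 to 439 CPM and 276 to 361 CPM. Calls in the other lists went both ways. Lower were 1 of 8 oligodendrocyte, 1 of 5 oligodendrocyte precursor, 2 of 12 interneuron and 1 of 7 choroid plexus and ependymal markers. Higher were 1 of 8 cortical neuron and 1 of 7 septal, pallidal and thalamic markers. In bulk tissue, fewer cells of a type and less RNA of a gene per cell cannot be told apart, and the part of any of these marker lists in the fall of Gabrd, Gabra4 and Gabrb1 was not tested. The fall of Gabrd, -0.43, was smaller than the median of the medium spiny neuron markers, and those of Gabra4 and Gabrb1 were smaller again.

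Within groups, library to library, members differed in how they went with the markers. After differences by group and sex were removed, Gabrd and Gabra4 had Pearson r of 0.59 and 0.66 with the mean log2 level of the medium spiny neuron list over 48 libraries. Gabrb1 had 0.08, Gabra5 -0.06, Gabrb2 -0.09, Gabra2 -0.09 and Gabra3 -0.49 with the same list. Gabra3 instead had r of 0.53 with oligodendrocyte, 0.54 with interneuron and 0.54 with septal, pallidal and thalamic markers. Gabrd had -0.51 with septal, pallidal and thalamic, -0.48 with oligodendrocyte and -0.42 with interneuron markers. With astrocyte markers Gabrd had -0.38, and with endothelial and mural markers 0.38. Gabra4 had -0.48 with oligodendrocyte, -0.43 with oligodendrocyte precursor and -0.38 with astrocyte markers. Neither Gabrd nor Gabra4 thus went with the medium spiny neuron list alone. Gabra5 had -0.42 with astrocyte markers. All of these values share libraries, depth and dissection, and are descriptions only.

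The libraries labelled Q140 Msh3-/- were compared with Q140 to ask what loss of Msh3 changes in the presence of the knock-in allele. The same 3 members were called as in the first comparison, all 3 higher: Gabrd, Gabra4 and Gabrb1. Of all genes, 11.9% were called, 6.85% higher and 5.04% lower. Both comparisons use the same 8 Q140 libraries, so their opposite directions are not independent.

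Gabrd had 96.7, 117 and 120.4 CPM (lowest, median, highest) in Q140 Msh3-/- against 80.2, 82.0 and 109.9 CPM in Q140. Of 8 Q140 Msh3-/- libraries, 6 lay above the highest Q140 library, and the ranges overlapped through F3 and F4. It rose by 0.34 on the log2 scale (SE 0.05, interval 0.24 to 0.45, edgeR, Benjamini-Hochberg adjusted p = 1.37e-05), to 127% of Q140.

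Gabra4 had 186, 201 and 222 CPM in Q140 Msh3-/- against 144, 175 and 186 CPM in Q140. All 8 libraries lay above the highest Q140 library, by a narrow gap (186.0 against 185.8 CPM); ranges did not overlap for 0.946% of all genes. It rose by 0.26 on the log2 scale (SE 0.05, edgeR, Benjamini-Hochberg adjusted p = 0.000507), to 119% of Q140.

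Gabrb1 had 141, 178 and 198 CPM in Q140 Msh3-/- against 130.1, 161 and 171 CPM in Q140, and 5 of 8 libraries lay above the highest Q140 library. It rose by 0.17 on the log2 scale (SE 0.05, edgeR, Benjamini-Hochberg adjusted p = 0.0297). This call was lost under 7 of 14 alternative settings, with an adjusted p of up to 0.167. It was also lost without Q140 F1, F4 or M1, or without Q140 Msh3-/- F4 or M2, with an adjusted p of up to 0.0906.

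The remaining 4 members were not called. Gabra5 had a log2 fold change of -0.13 (interval -0.27 to 0.02), and with library totals it was called lower, at -0.19 (edgeR, Benjamini-Hochberg adjusted p = 0.0464). That scaling moved the share of called genes that were higher from 57.6% to 18.8%. Gabra3 had -0.13 (interval -0.29 to 0.03), Gabrb2 0.08 (interval -0.08 to 0.24) and Gabra2 -0.30 (interval -0.62 to 0.01). Medium spiny neuron markers also moved here, 19 of 20 higher and none lower, with summed levels of 17010 to 19720 CPM in Q140 Msh3-/-. Astrocyte markers had 4 of 10 higher and none lower, with summed levels of 4332 to 5346 CPM, and 1 of 7 endothelial and mural, 1 of 7 microglia and 1 of 12 interneuron markers were higher. Other lists went down: 1 of 5 oligodendrocyte precursor and 1 of 8 cortical neuron markers were lower. Of 8 oligodendrocyte markers none was called, but 7 lay below 0, with a median log2 change of -0.11. The part of these lists in the 3 calls was not tested.

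In the libraries labelled Q140 Msh3+/-, 1 of 7 members was called against Q140, with 1.98% of all genes called, 1.28% higher and 0.696% lower. Gabrd had 97.9, 102 and 112 CPM, all but 1 of these libraries being at or below the highest Q140 value of 109.9. It rose by 0.21 on the log2 scale (SE 0.05, interval 0.10 to 0.32, edgeR, Benjamini-Hochberg adjusted p = 0.0311). The call was lost without the 3 libraries that stood apart (0.21, adjusted p = 0.0539), and without any 1 of 7 libraries, Q140 F1, F2, M1, M2 or M3 or Q140 Msh3+/- F1 or M4, with log2 changes of 0.19 to 0.21. It was also lost when only the 2 groups were fitted (0.21, adjusted p = 0.176) or plate row was added (0.20, adjusted p = 0.0562).

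Gabra4 had a log2 fold change of 0.16 (interval 0.05 to 0.26, edgeR, Benjamini-Hochberg adjusted p = 0.1) and Gabrb1 one of 0.13 (interval 0.02 to 0.23, adjusted p = 0.216) in that comparison. Gabra4 was called without Q140 M4 (0.18, adjusted p = 0.0358) and Gabrb1 without Q140 Msh3+/- F4 (0.18, adjusted p = 0.0241). Gabra3 had -0.17 (interval -0.32 to -0.01, adjusted p = 0.273). Medium spiny neuron markers were higher in 9 of 20 and lower in none there, and 4 of 7 choroid plexus and ependymal markers were higher. The part of these lists in the Gabrd call was not tested.

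Between the Msh3-/- and Msh3+/- labels on Q140, none of the 7 members was called, and 0.015% of all genes were (edgeR quasi-likelihood test). At an unadjusted p under 0.05 there were 2, Gabrd with a log2 fold change of 0.14 (interval 0.03 to 0.24, Benjamini-Hochberg adjusted p = 0.702) and Gabra2 with -0.40 (interval -0.71 to -0.08, adjusted p = 0.705). DESeq2 also called no member.

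The effect of Q140 was then taken within each Msh3 label. On Msh3+/- (8 against 9 libraries), 2 of 7 members fell, both extrasynaptic, with 6.45% of all genes called, 2.96% higher and 3.49% lower. Gabrd had 114, 119 and 137 CPM in Msh3+/- and 97.9, 102 and 112 CPM in Q140 Msh3+/-. The ranges did not overlap, as for 0.586% of all genes, and Gabrd fell by 0.25 on the log2 scale (SE 0.05, edgeR, Benjamini-Hochberg adjusted p = 0.00173).

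Gabra4 had 186, 215 and 243 CPM in Msh3+/- and 172, 190.1 and 202 CPM in Q140 Msh3+/-, with overlapping ranges. It fell by 0.19 on the log2 scale (SE 0.05, edgeR, Benjamini-Hochberg adjusted p = 0.0148), a call lost with plate row as a covariate (-0.18, adjusted p = 0.0893). Gabrb1 had a log2 fold change of -0.11 (interval -0.21 to -0.0037, adjusted p = 0.243). Medium spiny neuron markers were lower in 16 of 20, with summed levels of 19800 to 23710 CPM in Msh3+/- and 15440 to 18480 CPM in Q140 Msh3+/-. Lower too were 1 of 10 astrocyte and 1 of 12 interneuron markers, while 4 of 7 choroid plexus and ependymal markers were higher. The part of these lists in the falls of Gabrd and Gabra4 was not tested.

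On Msh3-/- (8 against 8 libraries), edgeR and DESeq2 each called none of the 7 members, and 0.0751% of all genes were called by edgeR, 0.0501% higher and 0.025% lower. Gabrd had 102, 119.5 and 128 CPM in Msh3-/- and 96.7, 117 and 120.4 CPM in Q140 Msh3-/-. The ranges of every member overlapped (0.0651% of all genes had none), and 1 of 8 Q140 Msh3-/- libraries lay below the Msh3-/- range of Gabrd. Its log2 fold change was -0.07 (interval -0.18 to 0.04), that of Gabra4 -0.05 (interval -0.16 to 0.05) and that of Gabrb1 -0.03 (interval -0.14 to 0.08). The interval still allows Gabrd to be as low as 88.4% of Msh3-/-. The member with an unadjusted p under 0.05 was Gabra2, at -0.36. Medium spiny neuron markers were lower in 2 of 20 and higher in none, and 19 lay below 0, with a median log2 change of -0.14. Their summed level was 20460 to 22050 CPM in Msh3-/- and 17010 to 19720 CPM in Q140 Msh3-/-.

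**Figure D3:**
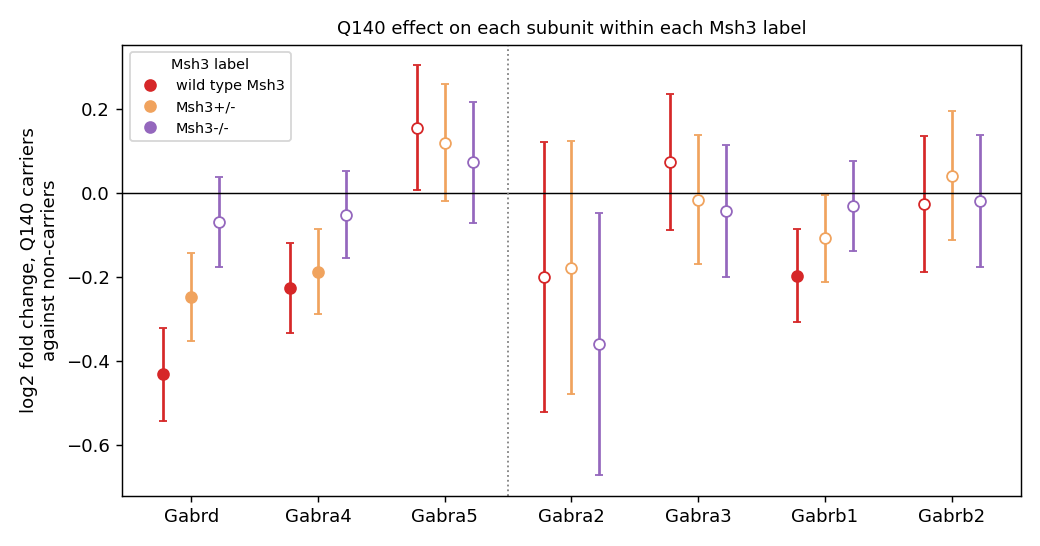
Log2 fold change (y axis) of Q140 carriers against non-carriers for each member, within wild type Msh3 (red), Msh3+/- (orange) and Msh3-/- (purple) labels; bars are 95% intervals, filled points were called by edgeR, and the dotted line parts the extrasynaptic class (left) from the synaptic class. Gabrd stood at -0.43, -0.25 and -0.07 in that order, and Gabra5 lay above 0 in each.

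Whether the Q140 effect differed between Msh3 labels was tested as an interaction. For Msh3-/- against wild type Msh3, 1 of 7 members was called, with 2.39% of all genes called, 1.67% higher and 0.721% lower. That gene was Gabrd, whose Q140 effect was less negative by 0.36 on the log2 scale in the Msh3-/- libraries (SE 0.08, interval 0.21 to 0.52, edgeR, Benjamini-Hochberg adjusted p = 0.00549). With plate row in the model the difference was 0.28 (adjusted p = 0.151). Medium spiny neuron markers moved the same way, with 10 of 20 called higher in this interaction, none lower, and a median of 0.31. The part of this list in the Gabrd call was not tested. Gabra4 had an interaction of 0.18 (interval 0.03 to 0.32, adjusted p = 0.235) and Gabrb1 one of 0.17 (interval 0.01 to 0.32, adjusted p = 0.279), so a difference in their Q140 effect was not shown.

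For Msh3+/- against wild type Msh3, edgeR called no member and no gene at all, while 1621 genes, Gabrd among them, had an unadjusted p under 0.05; DESeq2 called no member. The Gabrd interaction was 0.19 (interval 0.03 to 0.34, Benjamini-Hochberg adjusted p = 0.556).

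Without Q140, the Msh3 labels gave no called member in either comparison with wild type, by edgeR or DESeq2; edgeR called 0.01% of all genes for Msh3+/- and 0.03% for Msh3-/-. All member ranges overlapped with wild type, where 0.015% and 0.0551% of all genes had ranges apart. The members' log2 fold changes lay between -0.08 and 0.12 for Msh3+/- and between -0.14 and 0.08 for Msh3-/-. At an unadjusted p under 0.05 there was 1 member in Msh3+/-, Gabra4 at 0.12 (interval 0.01 to 0.22, Benjamini-Hochberg adjusted p = 0.988), and none in Msh3-/-. Between females and males edgeR called no member (2.93% of all genes, 1.65% higher and 1.28% lower in females), with log2 differences from -0.09 to 0.08 and 2 members at an unadjusted p under 0.05.

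By mean CPM, Gabrd ranked from Msh3+/- (122 ± 7.55) through wild type (120.1 ± 6.99), Msh3-/- (119 ± 8.02), Q140 Msh3-/- (113 ± 8.34) and Q140 Msh3+/- (103 ± 4.22) to Q140 (89.0 ± 11.5). The first 3 ranges overlapped, and of the neighbours that were tested the last pair passed the threshold. The order for Gabra4 was Msh3+/- (216 ± 19.9), Msh3-/- (209.9 ± 14.9), Q140 Msh3-/- (202 ± 12.5), wild type (198 ± 12.4), Q140 Msh3+/- (189 ± 11.4) and Q140 (169 ± 16.6), and no tested pair of neighbours passed. Gabrb1 lay between 170 and 182.7 CPM in mean in 5 groups and at 156 ± 14.3 in Q140. Both Gabrb1 and Gabrb2 varied less among the 8 Msh3-/- libraries (SD of 3.86 and 5.08 CPM) than among the 8 Q140 Msh3-/- libraries (16.5 and 15.5 CPM), a difference that was not tested.

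The 2 classes were compared as sums of FPKM per library, as a description with no test. FPKM here is scaled by library totals, without TMM factors. On this scale the median log2 change over all genes in Q140 against wild type was 0.09 (limma on log2(FPKM + 0.1)), against 0.01 with TMM. The extrasynaptic sum had a lowest, median and highest value of 76.2, 79.3 and 84.1 FPKM in wild type. In Q140 it had 62.5, 66.7 and 76.0 FPKM, and the ranges were apart by a narrow gap (75.95 against 76.24 FPKM). This largely restates the falls of Gabrd and Gabra4, which had 41.1 and 32.0 of a wild type mean of 79.4 FPKM. Gabra5 lay the other way, with means of 6.31 FPKM in wild type and 7.38 in Q140. No share over all genes goes with the sum. The synaptic sum was 53.1, 58.7 and 61.3 FPKM in wild type and 49.6, 56.9 and 67.1 FPKM in Q140, with the wild type range inside that of Q140. This does not show an unchanged class. Mean TMM-scaled CPM in wild type and Q140 was 132 and 115 for Gabra2 and 179 and 156 for Gabrb1. It was 130.1 and 127.7 for Gabrb2 and 32.6 and 34.4 for Gabra3. With the Msh3 labels, the mean extrasynaptic sum on Q140 was 75.0 ± 1.56 FPKM for Msh3+/- and 78.7 ± 2.62 for Msh3-/-.

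The ratio of the extrasynaptic to the synaptic sum was 1.37 ± 0.0728 in wild type, 1.40 ± 0.0853 in Msh3+/- and 1.41 ± 0.0911 in Msh3-/-. On Q140 it was 1.21 ± 0.203 with wild type Msh3, 1.295 ± 0.141 with Msh3+/- and 1.48 ± 0.156 with Msh3-/-. The ranges of the other groups all overlapped with that of wild type, and the spread within the Q140 groups was wider than in the groups without Q140. Gabra2 moved this ratio: without it the means were 1.94 ± 0.157 in wild type, and on Q140 1.66 ± 0.271, 1.80 ± 0.242 and 1.90 ± 0.207 in the same order, so that the last group was no longer above wild type. With every gene weighed alike, the mean log2 CPM of the extrasynaptic less that of the synaptic members was also taken. It was -0.38 ± 0.0511 in wild type and -0.46 ± 0.217 in Q140. The wild type range, -0.45 to -0.32, lay inside that of Q140, -0.72 to -0.13.

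**Figure D4:**
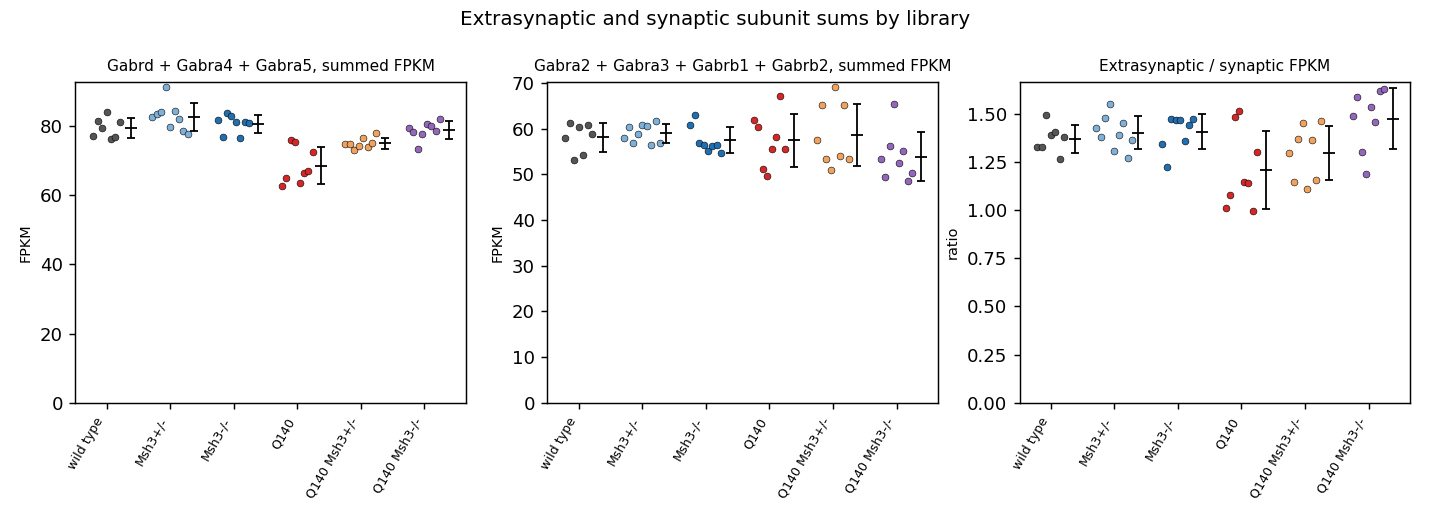
Summed FPKM of the extrasynaptic members (left), of the synaptic members (middle) and their ratio (right) by genotype label; each dot is 1 library, bars are mean ± SD, and y axes start at 0. The extrasynaptic sum of Q140 (62.5 to 76.0 FPKM) lies below that of wild type (76.2 to 84.1 FPKM) by a narrow gap, while the ratio ranges overlap. FPKM is scaled by library totals, without TMM factors.

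The classes were not uniform within. In Q140 against wild type the extrasynaptic members had log2 changes from -0.43 to 0.16, and the synaptic members from -0.20 to 0.07. The FPKM ratio of Gabrd to Gabrb2, a member of each class, was 2.06 ± 0.292 in wild type, and on Q140 it was 1.57 ± 0.314 with wild type Msh3, 1.72 ± 0.348 with Msh3+/- and 1.88 ± 0.324 with Msh3-/-. Its ranges overlapped between all of these groups.

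Gabra2 differed from the other members in its spread, with a coefficient of variation of 23.0% over 48 libraries. Ordered by value, its CPM fell into 3 bands, a division made after seeing the values: 10 libraries from 74.3 to 92.8 CPM, 17 from 104 to 118 CPM and 21 from 134.8 to 163 CPM. The gaps between them were 10.6 and 17.3 CPM wide. The lowest band held 2 Q140, 2 Q140 Msh3+/- and 6 Q140 Msh3-/- libraries and none of the 24 libraries without Q140.

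Of the Q140 Msh3-/- libraries, M4 was in the middle band at 112 CPM and F4 in the highest at 163 CPM. The same F4 library was the highest of its group in septal, pallidal and thalamic markers (mean log2 CPM 3.59 against 3.41 in the next). M4 was the lowest in microglia markers (4.89 against 5.05), and both were far from the rest by Dixon's criterion. Every marker list was screened in every group, so some libraries would pass by chance. Within groups Gabra2 had Pearson r of 0.27 and 0.14 with these 2 lists over 48 libraries. The part of these markers in the Gabra2 values was not tested. Wild type had 2 libraries in the middle band and 5 in the highest, Msh3+/- 2 and 7, and Msh3-/- 6 and 2. With all libraries Gabra2 was called in none of the 10 comparisons. Without Q140 Msh3-/- F4 it was called lower in Q140 Msh3-/- against Q140 (log2 -0.46, edgeR, Benjamini-Hochberg adjusted p = 0.0333). The bands were not tested, and they are defined by the level itself.

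**Figure D5:**
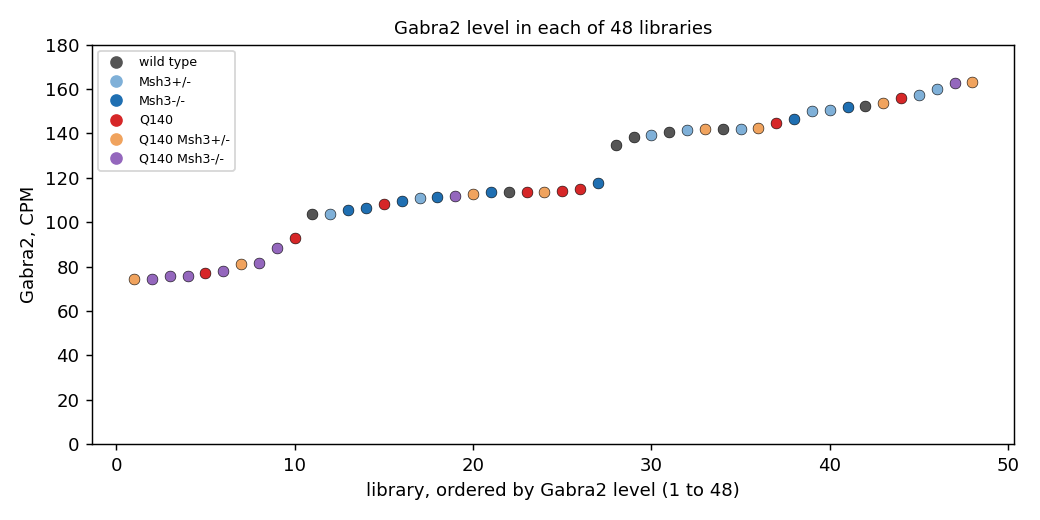
Gabra2 level (y axis, CPM) in each of the 48 libraries, ordered from lowest to highest (x axis) and coloured by genotype label. The 10 libraries at or below 92.8 CPM all carry Q140, and a gap of 17.3 CPM separates the highest 21 libraries from the rest.

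Within groups, with differences by sex also removed, the members that moved together most closely were Gabrb1 and Gabrb2. They had Pearson r of 0.72 and Spearman rho of 0.56 over 48 libraries. Gabra4 and Gabrd, which may share receptors, had r of 0.13 within groups and 0.64 over all libraries, group differences included. Gabra4 and Gabrb1, which start head to head, had 0.25 within groups and 0.51 overall. Gabra3 and Gabrd went opposite ways, at r of -0.63 within groups. These libraries share depth, dissection and cell makeup, and no p is given.

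The genes whose log2 CPM was most like that of Gabrd over the 48 libraries, among 13459 genes ranked, were Gsg1l (Pearson r = 0.93), an AMPA receptor auxiliary subunit gene, Rasgrp2 (0.92), a Rap activator enriched in striatum, and Kcnh4 (0.92), a potassium channel gene. For Gabra4 they were Dlg2 (0.92), a postsynaptic scaffold gene, Pptc7 and Rbfox1 (0.90 each). For Gabrb1 they were Vps13b (0.92), Wnk3 (0.91), a kinase gene that acts on chloride cotransporters, and Fzd3 (0.91). The closest gene to Gabrb2 was Slc9a7 (0.85), to Gabra3 Adgra1 (0.83), to Gabra5 Gda (0.69) and to Gabra2 Insig2 (0.55). These values include differences between groups.

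Genes of GABA synthesis, uptake and breakdown (8 tested) and of chloride transport (7 tested) had no call by edgeR in Q140 against wild type or in Q140 Msh3-/- against Q140. At an unadjusted p under 0.05 there were 0 of the 8 in both comparisons, and 2 of the 7 in each.

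Among 22 genes of GABA-A receptor anchoring and trafficking, 5 fell and 1 rose in Q140, against 10.2% lower and 9.64% higher over all genes, with a median log2 change of -0.03. Neto2, an auxiliary subunit of kainate receptors that also binds the chloride cotransporter KCC2, fell by 0.69 (SE 0.08, edgeR, Benjamini-Hochberg adjusted p = 2e-08). Clptm1, which limits the export of GABA-A receptors, fell by 0.18 (adjusted p = 0.000257), Gphn, the gephyrin scaffold of inhibitory synapses, by 0.13 (adjusted p = 0.00235) and Trak1, a trafficking adaptor, by 0.19 (adjusted p = 0.00885). In Q140 Msh3-/- against Q140, 5 of 22 rose and none fell, against 6.85% higher and 5.04% lower over all genes. Neto2 rose by 0.50 (SE 0.08, adjusted p = 1.93e-05), Clptm1 by 0.15 (adjusted p = 0.00289) and Trak1 by 0.16 (adjusted p = 0.0375). Neto2 was the list's 1 gene with a called interaction with Msh3-/-, at 0.42 (adjusted p = 0.0304).

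In the GABA-B receptor list of 5 genes, 2 fell and 1 rose in Q140, against 10.2% lower and 9.64% higher over all genes. Kctd16, an auxiliary subunit of GABA-B receptors, fell by 0.42 (SE 0.10, edgeR, Benjamini-Hochberg adjusted p = 0.0021) and Gabbr1, a GABA-B receptor subunit, by 0.11 (SE 0.04, adjusted p = 0.0188). Kctd8, a relative of Kctd16, rose by 0.31 (SE 0.08, adjusted p = 0.00309). Kctd16 rose in Q140 Msh3-/- against Q140 by 0.40 (SE 0.10, adjusted p = 0.00501), the 1 call of this list in that comparison, where 6.85% of all genes were higher.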

How the data were processed

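Stranded mRNA libraries of 48 mouse striatum samples were sequenced, and the authors deposited raw read counts per gene and FPKM values (read fragments scaled to gene length and library size) in 2 tables. Reads were handled with STAR 2.7.5c, SAMtools 1.10 and HTSeq 0.12.3 on GRCm38, per the submitters' processing notes; the annotation and strand setting are not given in the sources used here. The deposited counts were analysed with edgeR 4.0.16 in R 4.3.3 over all 48 libraries. Genes were kept by filterByExpr (minimum count 10, minimum total 15), leaving out 0.0383% of counts. Counts were scaled by TMM and fitted by group and sex, and tested with the two-sided quasi-likelihood test with Benjamini-Hochberg adjustment over 19975 genes at 0.05, in 10 comparisons. CPM values are TMM-scaled, and levels between genes use the deposited FPKM. The fit was also run on simulated counts with the same spread set for every gene, which does not test how these members vary. Alternatives used DESeq2 1.42.0, limma 3.58.1, other scaling, filters, covariates and left-out libraries. All members were named in the comparisons; from each other list, counts and up to 4 called genes, or up to 2 values, were taken. Nearest genes were the 3 with the highest Pearson r. The members, lists and rule were chosen with earlier results of these data known. GENCODE M21 gave positions, and RefSeq gave promoter windows on GRCm38.p6. Some other subunit genes are not reported here.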

Additional observations from a re-analysis of the deposited data

Results flagged for a closer look

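Within groups of 7 to 9 libraries, 42 sets of member values were screened for a highest or lowest library far from the rest (Dixon's criterion at 95%), and 5 passed, where chance passes about 1 in 20. Gabra2 in Q140 Msh3-/- F4 was 163 CPM against 112 CPM in the next library. Gabra3 in wild type F3 was 24.04 CPM against 31.9 CPM in the next. Gabrb1 was lowest in Msh3+/- F1, at 169 CPM against 181 CPM, and in Q140 Msh3+/- F4, at 128 CPM against 159.8 CPM. Gabrd in Q140 Msh3+/- M4 was 112 CPM against 105 CPM. A further result differed between Msh3 labels by its own test: the Q140 effect on Gabrd was less negative by 0.36 on the log2 scale in Msh3-/- than in wild type Msh3 (edgeR, Benjamini-Hochberg adjusted p = 0.00549).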

How the results depend on the processing

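With plate row as a covariate, the number of members called was 0 in the interaction of Q140 with Msh3-/-, 1 in Q140 Msh3+/- against Msh3+/- and 0 in Q140 Msh3+/- against Q140; the cause was not tested. That last number was again 0 when the fit held just its own groups, where fewer libraries share the estimate of spread, and 0 without 3 libraries that stand apart (wild type F3, Msh3+/- F5 and Q140 Msh3+/- F1, chosen after seeing the data), and leaving out 1 library gave 0 to 2. The number stayed within 1.5 times of the reported one in the other alternatives run. Gabrb2 in Q140 against wild type, never called, changed sign to 0.0524 with library totals and to 0.0477 and 0.0459 with limma on log2(FPKM + 0.1) and log2(FPKM + 1), and ranged from -0.0711 to 0.0178 with 1 library left out. Gabrb1 in Q140 Msh3-/- against Msh3-/-, also never called, ranged from -0.0561 to 0.0112 with 1 library left out. The call of Gabrd in Q140 against wild type held in all 14 other settings (log2 -0.46 to -0.35) and with each library left out (-0.48 to -0.41).

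Replicate numbers are shared between groups, but did not pair the libraries: 10 of 115 same-number pairs had a correlation over 0.1 (range -0.30 to 0.30), and 4 of 48 libraries correlated best with their own number. With the replicate block, 3 members were called in Q140 against wild type, 3 in Q140 Msh3-/- against Q140 and 1 in the interaction with Msh3-/-, as without it, and it changed no other count. Gabrd had log2 -0.44 under the replicate block in Q140 against wild type. The stem of the animal code, taken as a random block, was among the alternative settings run. Scaling by library totals moved the share of called genes that were higher in Q140 Msh3+/- against Q140 from 64.8% to 31.6%. The least expressed member, Gabra5, had 616 to 1211 counts a library; a limit set by depth was not tested.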
